A study of Mus musculus with 18 samples.

Results

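The 6 libraries described here are the conventional T cells (Tconv) of a mouse spleen data set of 18 RNA-seq libraries, chosen by their titles: 3 from CD28-deficient mice and 3 from wild type mice. The other 12 libraries are regulatory T cells (Treg) of the same genotypes, divided into Nrp1+ and Nrp1- subsets. All mice were on the C57BL/6 strain, and the design text has both genotypes carry the Foxp3EGFP reporter allele, so the wild type cells come from reporter mice too. The CD28-deficient mice were CD28-/-, a loss in every cell and not in T cells alone. Ages and sexes were not used here, no stimulation is named in the labels, and the sort gate for Tconv is not described. The labels do not say whether the replicates of a group are separate animals, so a p-value below measures only the spread between these libraries, which may be technical.

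CD28 is the receptor through which a T cell receives its classical costimulatory signal, delivered by CD80 and CD86 on antigen-presenting cells together with the antigen receptor signal. In a naive CD4 T cell this combined signal leads to cell division and to differentiation into helper subsets: Th1 cells, which make interferon-gamma under control of T-bet, and follicular helper (Tfh) cells, which enter B cell follicles through CXCR5 and make IL-21. A spleen of an unimmunised mouse holds mostly naive conventional T cells and a smaller share of cells that have met antigen. Since these are bulk libraries, fewer cells of a type and less RNA per cell cannot be told apart in any result below.

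Values are FPKM, the fragments per kilobase of transcript scaled to the mapped fragments of a library. A difference is CD28-deficient minus wild type on the log2(FPKM + 1) scale, given ± the standard error of the limma fit. That scale understates the change of genes with low FPKM. Summed FPKM ranged from 544607 to 994139 over the 6 libraries, which had 10912 to 11424 genes at an FPKM of at least 1. Of 26665 genes listed, 11370 reached an FPKM of 1 in at least 3 of the 6 libraries and were tested. A gene is called at a Benjamini-Hochberg adjusted p under 0.05.

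The labelled cell type was checked against its markers. Cd3e, a chain of the antigen receptor complex, was at 392, 470 and 410 in CD28-deficient replicates 1 to 3 and at 610, 483 and 461 in wild type replicates 1 to 3. Cd4 was at 201, 241 and 197 against 306, 267 and 262. Cd8a stayed at or below 0.442 in every library, while Cd8b1, the other chain of CD8, was at 10.5, 12.6 and 10.6 against 9.71, 8.22 and 7.46. The B cell markers Ms4a1 and Pax5 were at or below 0.15, and the NK cell receptor gene Ncr1 was at or below 0.0757. The B cell markers Cd79a and Cd79b reached 1.62 and 1.56, both in CD28-deficient replicate 3. Cd3e and Cd4 were thus at high levels, and Cd8b1 was present without Cd8a.

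The targeted gene does not check the genotype labels. Cd28 was at 65.7, 117 and 84.0 in the CD28-deficient libraries and at 33.6, 82.8 and 67.3 in the wild type ones (chromosome 1, 60716800 to 60773359; 0.58 ± 0.31, adjusted p = 0.549 by limma), with the groups overlapping. An FPKM of the whole gene does not show which exons the reads came from, so each direction below rests on the labels.

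CD28-deficient replicate 3 and wild type replicate 1 stand apart from the other Tconv libraries. The former held Treg transcripts: Foxp3 was at 21.1 there, against 0.067 and 0.205 in replicates 1 and 2 and 0.184 to 0.285 in wild type Tconv, while CD28-deficient Treg held 87.9 to 105 (Nrp1+) and 81.4 to 111 (Nrp1-). Lrrc32, a Treg surface protein, was at 17.8 in that library and at or below 0.1 in the other 5. The 11 Treg markers summed to 230 in it, against 44.0 and 46.4 in the other CD28-deficient libraries and 81.0 to 129 in wild type. Wild type replicate 1 stood apart by a summed FPKM of 994139 and by Hspa1a, a heat shock gene, which was at 86.2 there and between 2.25 and 19.0 in the other 5. It was also shifted by transcript length: relative to the mean of wild type replicates 2 and 3, the median log2 difference was 0.48 over the 2449 genes with the shortest transcripts and -0.57 over the 2449 with the longest. The share of summed FPKM listed under Mir5105 was 26.9% in CD28-deficient replicate 3 and 19.4% in wild type replicate 1, against 2.98% to 11.6% in the other 4. CD28-deficient replicate 1 differed in another way, with 6292 genes listed at 0 against 8479 to 9742. Below, a call of a named gene that was lost with either of the first 2 left out is given as lost beside that gene, and a list's count is given again where it changed.

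**Figure D1:**
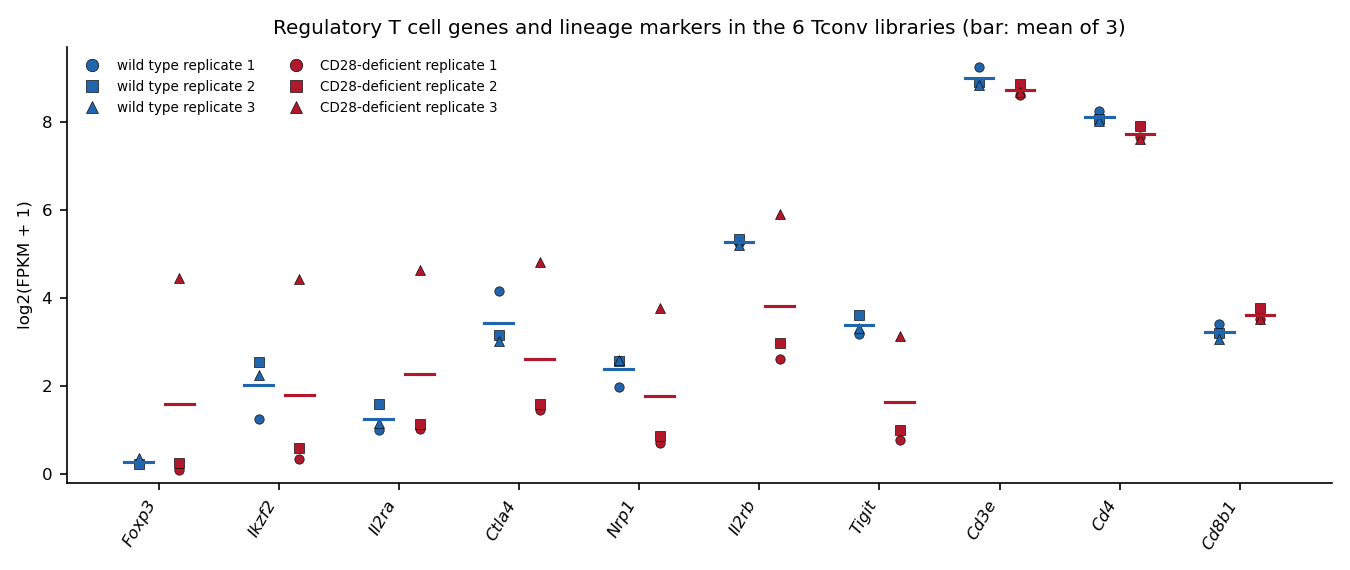
Level of Treg genes (left) and lineage markers (right) in each Tconv library, as log2(FPKM + 1) on the vertical axis; blue symbols are wild type, red symbols CD28-deficient, shapes mark the replicate and bars the mean of 3. CD28-deficient replicate 3 (red triangles) lies above the other CD28-deficient libraries for the 7 genes from Foxp3 to Tigit, with Foxp3 at 21.1 FPKM, and next to them for Cd3e and Cd4.

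Loss of CD28 went with lower expression of effector genes in Tconv, and no gene was called higher. Of the 11370 genes tested, 87 were called lower (0.765%) and 0 higher with limma, and at an unadjusted p under 0.05 the counts were 1047 lower and 24 higher. The lowest adjusted p of any gene above 0 was 0.132. In all 87 called genes the highest CD28-deficient library lay below the lowest wild type one, as it did in 18.7% of all tested genes; the reverse held in 0.378%. The median of all tested genes was itself -0.17, and 79.4% of them lay below 0, a shift that quantile normalization removed (median -0.00121). After it the groups did not overlap in 638 genes that were lower and in 312 that were higher, of the 11370 tested. With this normalization 114 genes were called, 110 lower (0.967%) and 4 higher (0.0352%), and 66 of the 87 were among them. With a pseudocount of 0.1, 91 were called, all lower (0.8%).

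The count depends on the libraries and the model. Without CD28-deficient replicate 3 it rose to 143 (1.26% of tested genes), all lower, of which 76 were among the 87. Without wild type replicate 1 it dropped to 49 (0.431%), all lower, 47 of them among the 87. Without both it was 108 (0.95%), all lower. It was 46 without CD28-deficient replicate 1 and 47 without CD28-deficient replicate 2. With the replicate number as a block it was 152, with 148 lower (1.3%) and 4 higher (0.0352%), and held all 87. A fit of the 6 Tconv libraries alone, which estimates the spread from 4 residual degrees of freedom, called only 10 genes, 8 lower (0.0704%) and 2 higher (0.0176%). The 87 genes lay below 0 in each of these fits, and 44 were called with all libraries, with each library that stands apart left out in turn, and with both left out.

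The filter on low values matters for genes of low FPKM, also where the adjusted p is very low, as for Cd22 (2.51e-06 by limma) and Sostdc1 (5.04e-06). Among tested genes, 48 passed it through the wild type libraries alone and 29 of these were among the 87 called. Another 4 passed through the CD28-deficient libraries alone and 0 were called. A gene of the first kind had to be lower in CD28-deficient cells. The genes of this kind named below are Gzmk, Gzmb, Gzma, Ccl4, Xcl1, Il21, Sostdc1, Baiap3, Il9r, Cd22, Runx2, Rap1gap2, Cxcl10 and Cebpa.

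**Figure D2:**
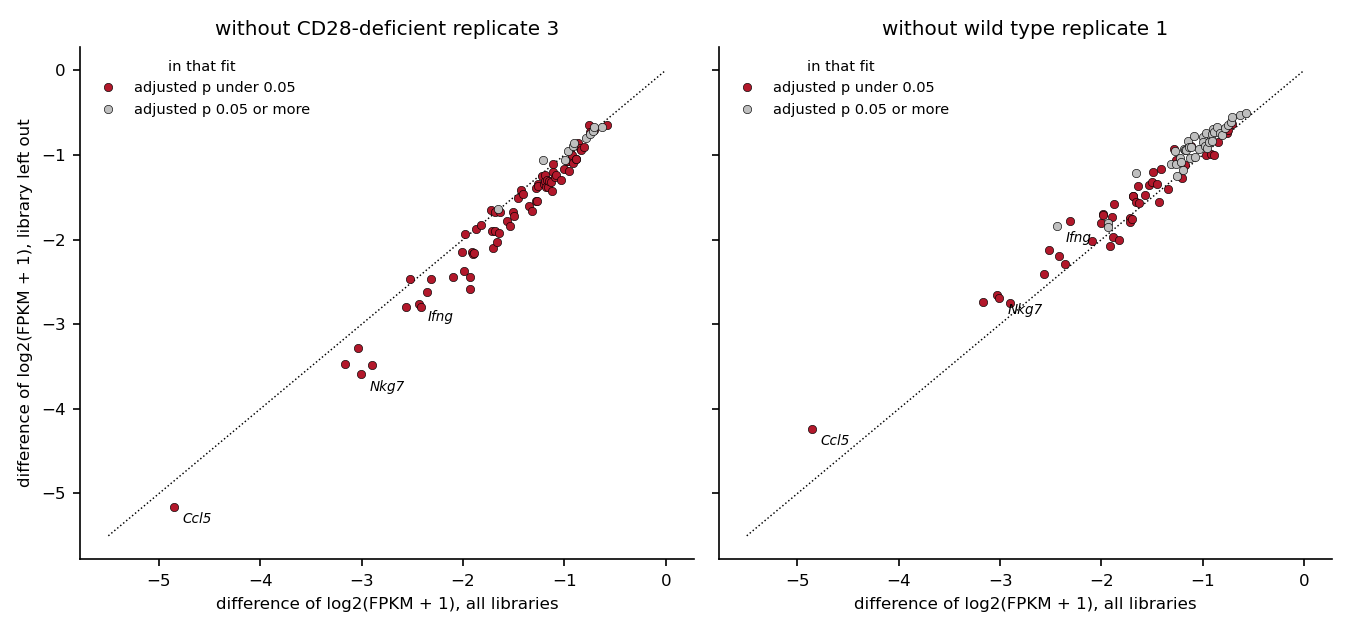
Difference (CD28-deficient minus wild type, log2 scale) of the 87 called genes with all libraries on the horizontal axis and with 1 library left out on the vertical axis; red points keep an adjusted p under 0.05 in that fit, grey points do not, and the dotted line marks equal values. Without CD28-deficient replicate 3, 76 of the 87 stayed called and most differences grew, while without wild type replicate 1 only 47 did and most shrank.

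The Th1 genes had the lowest median of the lists. The lists and their members were chosen with earlier results of these data known, so list counts and medians are partly set by that choice. For every list count below with all libraries, the share of all tested genes called lower was 0.765%. Of 17 tested Th1 genes 7 were called lower and 0 higher, with a median difference of -1.22 against -0.17 for all genes, and 2 of them passed the filter through wild type alone. Without CD28-deficient replicate 3 the count was 9, and without wild type replicate 1 it was 5. Ccl5, a chemokine that attracts effector T cells, was at 3.81, 3.28 and 7.55 in CD28-deficient libraries and at 381, 132 and 82.7 in wild type ones. All CD28-deficient libraries lay far below all wild type ones, and wild type replicate 1 stood highest. It fell by 4.85 ± 0.45 (adjusted p = 1.29e-05 by limma), and by 4.23 without wild type replicate 1.

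Cxcr3, the receptor that brings Th1 cells to inflamed tissue, was at 1.78, 2.64 and 9.52 against 42.5, 35.2 and 27.2. It fell by 2.90 ± 0.35, and by 3.48 without CD28-deficient replicate 3, the highest library of its group. Tbx21, which encodes T-bet, the factor that directs Th1 differentiation, was at 0.563, 0.475 and 1.05 against 7.90, 4.70 and 5.04 (chromosome 11, 97098071 to 97115331). It fell by 2.01 ± 0.22, with no overlap between the groups and a call without either library. The interferon-gamma gene Ifng was at 0.690, 1.11 and 2.73 against 28.3, 6.58 and 8.45 (chromosome 10, 118441046 to 118445892). The groups did not overlap, yet wild type replicate 1 held most of the wild type total. Ifng fell by 2.44 ± 0.49 (adjusted p = 0.0225 by limma), and its call was lost without wild type replicate 1 (-1.84, adjusted p = 0.152).

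Of the remaining Th1 genes, the chemokine genes Ccl4 and Xcl1 fell by 2.31 ± 0.37 and 1.66 ± 0.36, and the chemokine receptor gene Cxcr6 by 1.19 ± 0.23. Xcl1 lost its call without either library (adjusted p = 0.0744 with CD28-deficient replicate 3 left out and 0.226 with wild type replicate 1 left out), and Cxcr6 without wild type replicate 1 (adjusted p = 0.0757). Il12rb1, a chain of the IL-12 receptor, and Hopx, a homeodomain protein of Th1 cells, were not called with all libraries but were without CD28-deficient replicate 3, at -1.82 and -1.46, Il12rb1 also with the replicate block (adjusted p = 0.0205). Il18rap, a chain of the IL-18 receptor, was called without that library (-1.46), without wild type replicate 1 (-1.47) and with the replicate block, but not with all libraries (-1.24 ± 0.29, adjusted p = 0.0566). The signalling and lineage genes Stat4, Runx3, Txk and Fasl were not called, with differences of -0.48, -0.38, 0.08 and -0.19, as was Tnf (-0.70 ± 0.22, adjusted p = 0.266).

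**Figure D3:**
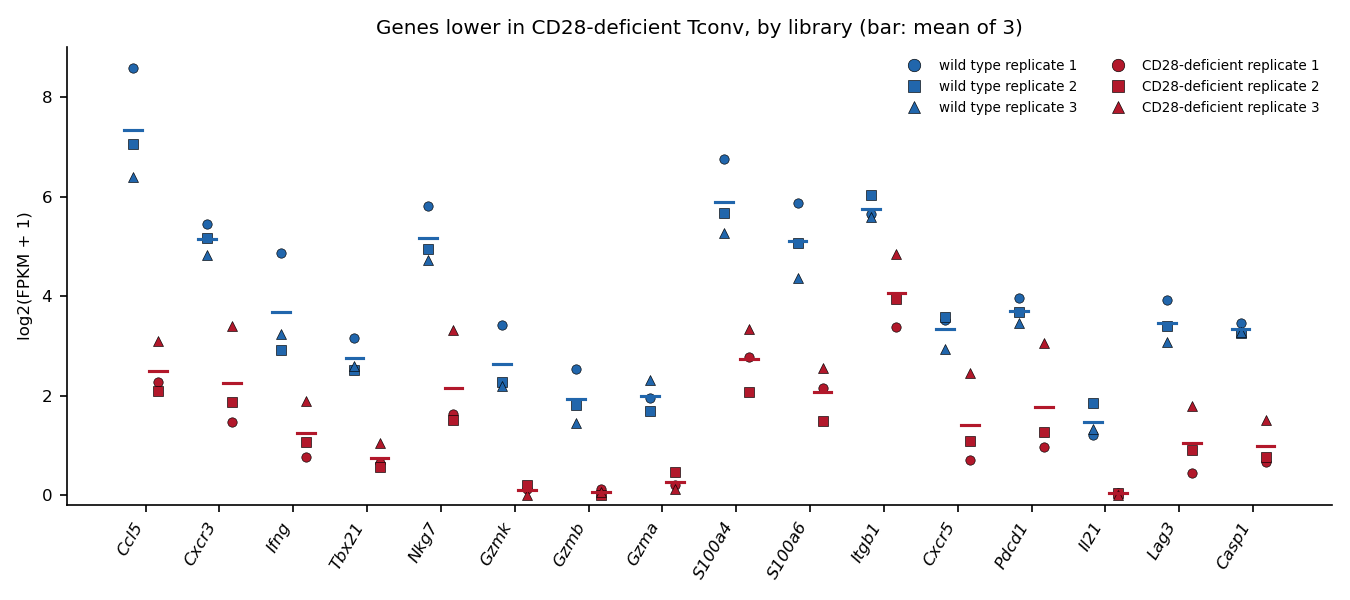
Level of 16 called genes in each Tconv library, as log2(FPKM + 1) on the vertical axis; blue symbols are wild type, red symbols CD28-deficient, shapes mark the replicate and bars the mean of 3. No gene's groups overlap, which the filter fixed in advance for Gzmk, Gzmb, Gzma and Il21. Replicate 3 (triangle) is the highest CD28-deficient library for most genes shown, while wild type replicate 1 (circle) is often the highest wild type one.

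Granule genes of cytotoxic lymphocytes fell alongside. Among 13 tested cytotoxic and killer receptor genes 5 were called lower and 0 higher (median -0.62), 3 of them having passed the filter through wild type alone. The count was 6 with CD28-deficient replicate 3 left out and 5 with wild type replicate 1 left out. Nkg7, a membrane protein of cytotoxic granules, was at 2.09, 1.84 and 9.0 against 54.8, 29.9 and 25.6 (chromosome 7, 43437073 to 43438249), and fell by 3.01 ± 0.41. Gzmk, a granule protease, was at 0.0863, 0.157 and 0 against 9.75, 3.84 and 3.56, and fell by 2.52 ± 0.26 (adjusted p = 3.68e-05 by limma). Gzmb, the granzyme that cleaves caspases, was at 0.0902, 0 and 0.0435 against 4.80, 2.52 and 1.75, and fell by 1.87 ± 0.31. The groups of all these genes are apart, which the filter fixed in advance for Gzmk and Gzmb. Wild type replicate 1 is the highest library of each gene.

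Gzma, another granule protease, was at 0.156, 0.381 and 0.0838 against 2.86, 2.23 and 4.0, the highest being wild type replicate 3, and fell by 1.72 ± 0.22. Ctsw, a lysosomal protease of killer cells, was at 12.1, 10.7 and 16.6 against 50.0, 29.1 and 39.0 and fell by 1.5 ± 0.20. Both stayed called without either library that stands apart, though the filter fixed the direction of Gzma in advance, in those fits too. The pore-forming gene Prf1 was not called (-0.47, adjusted p = 0.549), nor was the receptor gene Klrd1 (0.19). Of the 24 genes on the list, 11 lay below the filter, and these were low in most libraries. Klrg1, a receptor of effector and some Treg cells, was at 0.241, 0 and 3.22 against 1.43, 0.303 and 0.711, highest in CD28-deficient replicate 3. The receptor gene Klrb1f was at 0.0777, 0.183 and 0.306 against 0.990, 1.20 and 0.989, and Klre1 at 0.117, 0.0671 and 0.116 against 1.01, 0.468 and 0.519.

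Markers of NK cells moved with these genes. The 6 NK markers summed to 1.60 to 2.56 in CD28-deficient libraries and to 3.45 to 6.77 in wild type ones, most of it from Eomes, a T-box factor that T cells also express. Eomes itself was called lower (1.25, 1.74 and 1.42 against 5.52, 4.36 and 2.17; 0.96 ± 0.22 lower, adjusted p = 0.0496 by limma). That call was lost without either library that stands apart. Klrb1c was at 0.232, 0.713 and 0.659 against 0.833, 1.36 and 1.19, and the defining marker Ncr1 was at or near 0 in all 6. The NKT cell factor Zbtb16 was between 0.124 and 0.411. The part of other killer cells in the granule results was not tested.

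Promoters of 20 of the 27 called genes of the Th1, cytotoxic, Tfh and antigen-experienced lists were found in RefSeq (build GRCm38.p6, 250 bases before to 50 bases after the start site) and searched for letters bound by T-box factors, AP-1 and NFAT. The T-box letters were GGTGTGA and, on the other strand, TCACACC. The AP-1 letters were TGANTCA, which read the same on both strands, and the NFAT letters GGAAAA or TTTTCC. A T-box and an AP-1 match can share TGA, or TCA on the other strand, at their ends. The T-box letters occurred in 3 of the 20 genes, and are shown here in capitals in the 250 bases before the start site. A link between these letters and the lower Tbx21 and Eomes values was not tested.
Nkg7 (chr7:43436888-43437137, + strand): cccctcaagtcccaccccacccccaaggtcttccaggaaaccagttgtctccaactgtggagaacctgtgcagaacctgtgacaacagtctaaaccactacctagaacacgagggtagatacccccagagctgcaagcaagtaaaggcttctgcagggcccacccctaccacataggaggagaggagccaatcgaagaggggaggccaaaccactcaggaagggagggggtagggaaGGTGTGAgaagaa
Gzmk (chr13:113180966-113181215, - strand): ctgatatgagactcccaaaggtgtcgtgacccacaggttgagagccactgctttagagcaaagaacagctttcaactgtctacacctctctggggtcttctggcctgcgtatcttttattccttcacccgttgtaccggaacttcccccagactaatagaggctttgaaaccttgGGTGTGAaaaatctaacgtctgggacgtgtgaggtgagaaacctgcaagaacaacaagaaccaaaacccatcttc
Xcl1 (chr1:164935523-164935772, - strand): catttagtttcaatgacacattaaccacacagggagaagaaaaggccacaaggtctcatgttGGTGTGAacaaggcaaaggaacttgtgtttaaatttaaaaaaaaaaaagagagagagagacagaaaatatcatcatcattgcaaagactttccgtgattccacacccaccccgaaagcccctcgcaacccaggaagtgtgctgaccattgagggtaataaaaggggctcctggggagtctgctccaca

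The match begins 13 bases before the RefSeq start site in Nkg7, 75 in Gzmk and 188 in Xcl1. Gene positions in this text are from GENCODE, and the matches of Nkg7 and Gzmk lie within the GENCODE spans of these genes. Over all promoters of that table, 3.98% of 32851 hold the T-box letters. By gene they were in 6 of the 62 called genes with a promoter (9.68%), against 4.01% of tested genes with one. The AP-1 letters, bound by the Fos and Jun factors that antigen receptor and CD28 signals act on together, were found in Gzmb, Anxa2 and S100a11, and are in capitals in these.
Gzmb (chr14:56262335-56262584, - strand): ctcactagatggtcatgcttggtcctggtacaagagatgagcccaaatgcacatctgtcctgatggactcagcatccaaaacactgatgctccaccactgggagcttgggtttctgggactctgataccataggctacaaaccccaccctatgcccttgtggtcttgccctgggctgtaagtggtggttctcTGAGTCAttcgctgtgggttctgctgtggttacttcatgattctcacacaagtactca
Anxa2 (chr9:69453433-69453682, + strand): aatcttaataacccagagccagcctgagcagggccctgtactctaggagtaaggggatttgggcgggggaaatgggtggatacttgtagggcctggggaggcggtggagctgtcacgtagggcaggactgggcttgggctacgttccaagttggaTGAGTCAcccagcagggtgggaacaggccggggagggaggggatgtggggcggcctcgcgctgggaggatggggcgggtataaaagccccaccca
S100a11 (chr3:93520246-93520495, + strand): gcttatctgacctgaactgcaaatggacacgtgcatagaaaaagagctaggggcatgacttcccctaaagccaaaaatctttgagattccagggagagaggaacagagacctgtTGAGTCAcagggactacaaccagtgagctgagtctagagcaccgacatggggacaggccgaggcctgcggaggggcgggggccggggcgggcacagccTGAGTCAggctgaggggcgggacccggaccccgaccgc

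The AP-1 letters occurred in 10 of the 62 called genes (16.1%), against 5.41% of tested genes and 8.97% of all genes with a promoter. The NFAT letters occurred in 16 of the 62 (25.8%), against 23.8% of tested genes. A match describes letters only, and the promoters of Tbx21, Ifng and Cxcr3 held no T-box letters in this window.

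Genes of follicular helper cells fell as well. Of 21 tested Tfh genes 8 were called lower and 0 higher (median -0.76), 3 of them having passed the filter through wild type alone. The count was 9 with CD28-deficient replicate 3 left out, 5 with wild type replicate 1 left out and 10 with the replicate block. Il21, the cytokine that Tfh cells give to B cells, was at 0.0365, 0.0327 and 0 against 1.31, 2.61 and 1.51 (chromosome 3, 37222759 to 37232636), and fell by 1.43 ± 0.14 (adjusted p = 2e-05 by limma). Sostdc1, a secreted BMP and WNT antagonist, was listed at 0 in all 3 CD28-deficient libraries and at 1.76, 2.89 and 3.16 in wild type ones. It fell (adjusted p = 5.04e-06 by limma), and it was called without each of the libraries that stand apart, as was Il21. The filter fixed the direction of both genes in advance. Those fits tested the same genes, so their calls do not test the direction either. Tox2, an HMG-box factor of Tfh cells, was at 0.216, 0.153 and 1.06 against 3.73, 4.57 and 4.58, and fell by 1.89 ± 0.26. Angptl2, a secreted angiopoietin-like protein, was at 0.209, 0.177 and 1.45 against 6.23, 5.06 and 5.23, and fell by 2.10 ± 0.23.

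Pdcd1, which encodes the inhibitory receptor PD-1, was at 0.960, 1.41 and 7.35 against 14.5, 11.9 and 9.98. Replicate 3 came near the lowest wild type library without reaching it. Pdcd1 fell by 1.93 ± 0.40 (adjusted p = 0.028 by limma), by 2.58 without CD28-deficient replicate 3, and was not called without wild type replicate 1 (-1.80, adjusted p = 0.173). Cxcr5 was at 0.623, 1.13 and 4.44 against 10.4, 11 and 6.66. It fell by 1.93 ± 0.37, and likewise lost its call without wild type replicate 1 (-1.85, adjusted p = 0.0962). Cebpa and Asb2, a transcription factor and a ubiquitin ligase subunit, fell by 1.41 and 1.27, and Asb2 lost its call without wild type replicate 1 (adjusted p = 0.181). Neither is particular to Tfh cells here. Their wild type means were 2.19 and 2.96 in Tconv, 5.95 and 9.29 in Nrp1+ Treg, and 1.4 and 17.0 in Nrp1- Treg. Angptl2, Tox2, Pdcd1 and Cxcr5 also had higher wild type means in Nrp1+ Treg (7.98, 13.6, 55.1 and 19.4) than in Tconv (5.51, 4.30, 12.1 and 9.34). Those of Il21 and Sostdc1 were lower in Nrp1+ Treg (0.142 and 0.406) than in Tconv (1.81 and 2.60). The factor Bcl6, which defines the Tfh programme, was not called (4.59, 5.87 and 5.94 against 8.35, 8.54 and 9.06; -0.58 ± 0.19, adjusted p = 0.307, and adjusted p = 0.0441 after quantile normalization). Icos (-0.76) and Cd40lg (-0.21), which encode molecules by which T cells help B cells, were not called either, except Icos after quantile normalization (adjusted p = 0.0294).

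No gene of the Th2 or Th17 lists was called, among 5 and 7 tested. All of these lay below 0, as did 79.4% of all tested genes, with medians of -0.23 and -0.37. After quantile normalization the medians were -0.02 and -0.31. In the Th17 list 4 genes did not overlap between the genotypes, all lower, and in the Th2 list 0, against 18.7% of all tested genes. The cytokine gene Il4 lay below the filter, at 0, 0.220 and 0 against 0.970, 1.3 and 0.489, without overlap. Il17a was listed at 0 in all 6 libraries. The Th2 factor Gata3 was at 19.7, 26.2 and 33.2 against 28.1, 28.3 and 35.5 (-0.23 ± 0.22, adjusted p = 0.758), and the groups overlapped. Il2, the growth factor that CD28 costimulation is known for, lay below the filter at 0.144, 0.0672 and 0 against 1.14, 1.37 and 0.618. It was therefore not tested.

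Genes that mark antigen-experienced and migrating T cells fell together with the helper genes. Of 22 tested 7 were called lower and 0 higher (median -0.67), and the count was 7 with CD28-deficient replicate 3 left out and 5 with wild type replicate 1 left out. S100a4, a calcium-binding protein of motile cells, was at 5.89, 3.19 and 9.14 against 108, 49.8 and 37.4 (chromosome 3, 90603771 to 90606045), and fell by 3.17 ± 0.39. Its neighbour S100a6, of the same family, was at 3.46, 1.80 and 4.86 against 57.5, 32.4 and 19.6, and fell by 3.04 ± 0.38. In both genes every wild type library lies well above every CD28-deficient one, and wild type replicate 1 is the highest.

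Itgb1, the beta 1 integrin chain that memory cells carry at a higher level, was at 9.44, 14.3 and 27.9 against 49.0, 64.7 and 47.3, and fell by 1.70 ± 0.30. Anxa2, a membrane-binding annexin, fell by 1.99 ± 0.29 and S100a11 by 1.28 ± 0.23. Ly6a, which encodes Sca-1, was at 73.3, 82.8 and 56.1 against 195, 167 and 133 and fell by 1.21 ± 0.23. Here CD28-deficient replicate 3 was the lowest library, and the call was lost without it (adjusted p = 0.0504) and without wild type replicate 1 (adjusted p = 0.0867). Lgals1, which encodes galectin-1, fell by 1.09 ± 0.23 and was not called without wild type replicate 1 (adjusted p = 0.146). Cd44, the usual surface marker of memory cells, was at 6.39, 11.4 and 12.7 against 13.4, 22.8 and 18.2. It was not called with all libraries (-0.80 ± 0.27, adjusted p = 0.357), but it was with the replicate block (adjusted p = 0.0446).

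In contrast, no naive cell gene was called. All 25 genes of the naive and resting list were tested, with a median of -0.05, above the -0.17 of all genes, and after quantile normalization the median was 0.22. Left out in turn, CD28-deficient replicate 3 moved it to 0.03 and wild type replicate 1 to -0.14, with 0 calls in each. Ccr7, a lymph node homing receptor, was at 181, 240 and 170 against 238, 202 and 196 (-0.12 ± 0.24). Il7r, the survival receptor of naive cells, was at 148, 229 and 145 against 110, 170 and 176 (0.19 ± 0.33). The groups overlapped in both, as they did for the naive cell factors Tcf7 (-0.19, and 0.05 after quantile normalization) and Lef1 (0.08). After quantile normalization Ccr7 lay at 0.18. Igfbp4 lay at -0.81 ± 0.35 (adjusted p = 0.497), with no overlap.

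**Figure D4:**
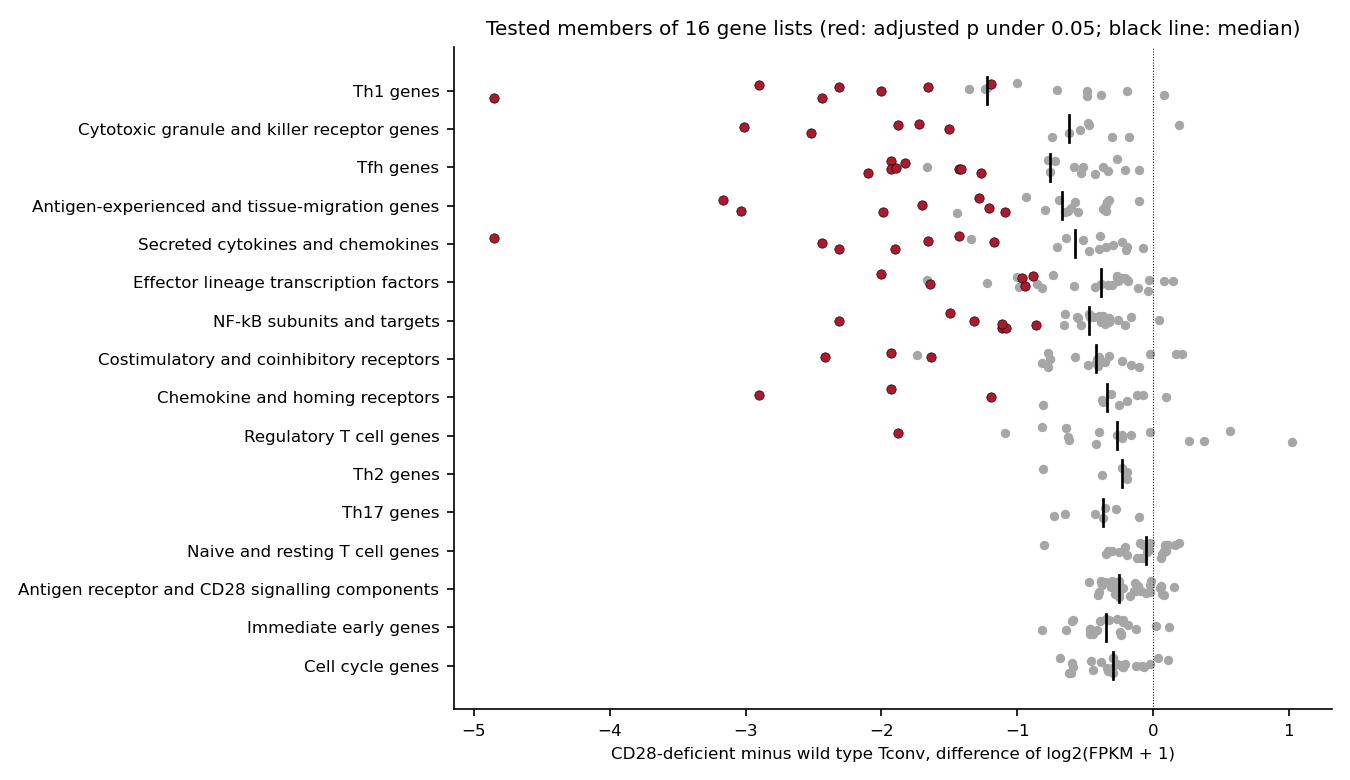
Difference between CD28-deficient and wild type Tconv (horizontal axis, log2 scale) for each tested member of 16 gene lists (rows); red points have an adjusted p under 0.05, grey points do not, the black line is the list's median and the dotted line marks 0. All red points lie left of 0, and the Th1 list has the lowest median (-1.22), while the naive list has a median of -0.05 and no red point.

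Coinhibitory receptors gave 3 calls among 22 tested costimulatory and coinhibitory receptors (median -0.42). Lag3, an inhibitory receptor related to CD4, was at 0.353, 0.883 and 2.48 against 14.1, 9.56 and 7.49, and fell by 2.42 ± 0.28 (adjusted p = 0.000128 by limma). Cd22, a sialic acid-binding inhibitory receptor known from B cells, was at 0.276, 0.250 and 0.372 against 3.40, 3.12 and 2.60 and fell by 1.63 ± 0.12. The B cell markers Ms4a1 and Pax5 were near 0 in all 6 libraries, as given above. Cd79a was at 0.68, 0.846 and 1.62 against 1.02, 0.662 and 0.986. Cd79b was at 0.228, 0.986 and 1.56 against 0.791, 0.641 and 0.446. The part of B cells in the Cd22 values was not tested. Pdcd1 is the third call.

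The count was 2 without wild type replicate 1. Without CD28-deficient replicate 3 it was 6, the added ones being Tigit, Ctla4 and Tnfrsf4. Tigit, an inhibitory receptor of Treg and activated cells, was at 0.726, 1.0 and 7.90 against 8.14, 11.3 and 9.09. It lay at -1.74 ± 0.41 (adjusted p = 0.0659 by limma) with all libraries, at -2.49 ± 0.21 (adjusted p = 7.76e-06) without that library, and was called with the replicate block (adjusted p = 0.0164). Ctla4, the inhibitory relative of CD28, was at 1.76, 2.05 and 27.3 against 16.8, 7.94 and 7.13. It lay at -0.81 ± 0.59 with all libraries and at -1.91 ± 0.28 without replicate 3, in which Treg genes are high, and CD28-deficient Treg held Ctla4 at 106 to 139.

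The same held for 67 genes in all, called lower without CD28-deficient replicate 3 and not with all libraries. Among them are Il2rb, the beta chain of the IL-2 and IL-15 receptors (5.11, 6.86 and 59.5 against 37.3, 39.9 and 36.4; -2.49 ± 0.27 without replicate 3), the Tfh and Treg factor Maf (-2.13 ± 0.35), the ectonucleotidase gene Nt5e (-1.88) and the factor Irf4 (-1.23). On the Treg gene list 1 of 17 tested genes was called with all libraries (Gzmb) and 8 without replicate 3, where the median was -1.02 in place of -0.27. Nrp1 and Ikzf2 were at 2.99 to 5.08 and 1.38 to 4.90 in wild type Tconv, above CD28-deficient replicates 1 and 2, while Foxp3 was near 0 in all 5 of these libraries. The part of Treg in these values of replicate 3 was not tested.

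Among transcription factors of effector lineages, 5 of 29 tested were called lower and 0 higher (median -0.38), 9 with CD28-deficient replicate 3 left out and 3 with wild type replicate 1 left out. Beside Tbx21 and Eomes they were Zbtb32, a repressor induced in activated T cells (0.462, 0.331 and 1.49 against 6.64, 3.47 and 3.29; 1.64 ± 0.23 lower), Id2, an inhibitor of E proteins (32.7, 37.5 and 37.1 against 79.7, 66.7 and 63.1; 0.94 ± 0.18 lower) and Runx2 (0.89 ± 0.16 lower). Id2 lost its call without wild type replicate 1 (adjusted p = 0.102). Prdm1, the factor Blimp-1, was not called (-0.03 ± 0.21), and its groups overlapped.

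Secreted factors gave 7 calls among 20 tested (median -0.58), 4 of them having passed the filter through wild type alone. The count was 9 with CD28-deficient replicate 3 left out (median -0.97) and 4 with wild type replicate 1 left out. Of the 7, Ccl5, Ccl4, Ifng, Xcl1 and Il21 are given above. The others were Tnfsf14, the TNF family ligand LIGHT (1.20, 0.856 and 2.58 against 10.6, 7.92 and 6.36; 1.90 ± 0.31 lower), and Cxcl10, a ligand of CXCR3 (1.17 ± 0.24 lower). Cxcl10 lost its call without wild type replicate 1 (adjusted p = 0.192). Cytokine receptors gave 2 calls among 25 (median -0.19, and 0.07 after quantile normalization), 4 with CD28-deficient replicate 3 left out and 1 with wild type replicate 1 left out: Il9r fell by 1.71 ± 0.20, and Il15ra, which presents IL-15, by 1.26 ± 0.24, with a call lost without wild type replicate 1 (adjusted p = 0.0744).

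Both calls among 9 tested IL-1 family receptor and inflammasome genes (median -0.48) were inflammatory caspases, and the list held 3 calls with either library that stands apart left out. Casp1, which cleaves IL-1 beta and IL-18, was at 0.579, 0.694 and 1.85 against 10.1, 8.58 and 8.65 (chromosome 9, 5298517 to 5307265), and fell by 2.36 ± 0.24 (adjusted p = 3.41e-05 by limma). The wild type libraries lie close together here. Casp4, its noncanonical relative, was at 0.357, 0.129 and 1.62 against 4.80, 4.18 and 3.24 and fell by 1.66 ± 0.25. The adaptor Pycard and the effector Gsdmd were not called (-0.48 and -0.40). Myeloid cells express both caspases: the 9 myeloid and dendritic markers summed to 37.1 to 37.5 in CD28-deficient libraries and 51.6 to 72.7 in wild type ones, mostly Cst3 (28.0 to 30.6 against 34.9 to 58.7), with Lyz2 at 1.09 to 2.62 against 3.04 to 5.18. The markers Csf1r and Itgax were at or below 0.219 in all 6. S100a9 was at 1.45 to 2.52 against 5.14 to 6.58, and S100a8 at 2.42 to 3.52 against 2.70 to 9.06. Itgam went the other way on average, at 0.988 to 1.31 against 0.607 to 1.18. The part of myeloid cells in these results was not tested.

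Of 25 tested NF-kB subunits and targets 7 were called lower and 0 higher (median -0.47), against 0.765% of all tested genes called lower. The count was 8 with CD28-deficient replicate 3 left out and 3 with wild type replicate 1 left out. NF-kB is a transcription factor family that CD28 signals activate through PKC-theta. Bcl3, a coactivator of its p50 and p52 subunits, fell by 1.11 ± 0.21, and Icam1, an adhesion molecule, by 1.08 ± 0.23 (5.53, 4.45 and 7.18 against 14.2, 10.7 and 14.5). Without wild type replicate 1 neither was called (adjusted p = 0.0796 and 0.152). After quantile normalization the list held 3 calls, and Bcl3 was not among them (adjusted p = 0.101). The antiapoptotic A1 genes Bcl2a1d, Bcl2a1b and Bcl2a1a fell by 1.49 ± 0.25, 1.32 ± 0.26 and 1.12 ± 0.18, but they are near-identical copies that share reads, so they count as 1 observation and their separate values are uncertain. Bcl2a1b was not called without wild type replicate 1 (adjusted p = 0.141). None of the 3 was called after quantile normalization (adjusted p = 0.0558, 0.132 and 0.122). The NF-kB subunit genes Nfkb1, Rela and Rel were not called (-0.35, -0.33 and 0.05).

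The signalling machinery itself was not called: 0 of 37 antigen receptor and CD28 signalling components passed in limma (median -0.25, and 0.01 after quantile normalization). Lck was at 363, 396 and 377 against 571, 395 and 455, with the groups overlapping. Zap70 lay at -0.47 (adjusted p = 0.454), and its groups did not overlap. Immediate early genes gave 0 calls among 23 in limma, and 1, Irf4, without CD28-deficient replicate 3. Their median was -0.35, and -0.03 without wild type replicate 1. Nr4a1, Fos and Egr1 were at -0.59, -0.19 and -0.39; wild type replicate 1 held Nr4a1 at 128 and the other 5 libraries 34.5 to 43.8. Of the survival genes, Bcl2 (-0.06 ± 0.31) and Bcl2l1, which CD28 is known to induce (-0.26 ± 0.19), were not called, nor was Myc (-0.22 ± 0.21).

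Cell cycle genes gave 0 calls among 25 (median -0.29). Mki67, the marker of dividing cells, was at 0.584, 0.946 and 1.08 against 1.76, 2.38 and 1.47, which do not overlap (-0.62 ± 0.15, adjusted p = 0.066 by limma, and adjusted p = 0.0269 with the replicate block). Interferon response genes gave 0 calls among 34, with a median of -0.52 (-0.31 after quantile normalization), 5 with the replicate block, 4 after quantile normalization and 1 without CD28-deficient replicate 3. All 34 but Oas2 and Ifit2 lay below 0. The cytosolic ribosomal protein genes, also uncalled, had a median of -0.45 that became -0.08 after quantile normalization, so a low median alone does not set a list apart here.

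Single genes outside these groups were among the called ones. Myo1f, an unconventional myosin of leukocytes, was at 0.717, 0.706 and 1.80 against 13.8, 11.2 and 8.34 (chromosome 17, 33555707 to 33607764), and fell by 2.56 ± 0.24 (adjusted p = 1.29e-05 by limma). It was the 1 call among 30 cytoskeletal genes with all libraries, and 2 were called without CD28-deficient replicate 3. Baiap3, a protein of the Munc13 family of secretion factors, was at 0.589, 0.626 and 0.471 against 7.94, 4.46 and 3.81 and fell by 1.98 ± 0.20. Gpm6b, a membrane proteolipid, was at 0.616, 0.567 and 1.57 against 4.63, 6.5 and 7.25 and fell by 1.91 ± 0.23. The G protein subunit gene Gna15 fell by 1.28 ± 0.27, with a lost call without wild type replicate 1 (adjusted p = 0.173), and Rap1gap2, which switches off the integrin regulator RAP1, by 0.92 ± 0.13.

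The same contrast in Treg, whose libraries are separate, gave smaller differences for most of these genes. The 87 genes had a median of -1.26 in Tconv, -0.32 in Nrp1+ Treg and -0.31 in Nrp1- Treg, where all tested genes had medians of -0.05 and 0.20. Below 0 in both subsets lay 66 of the 87. The same share over all tested genes was not worked out, so that count has no background to be judged by. Of the 87, 4 were called in Nrp1+ and 3 in Nrp1- Treg, against 5 of 11370 (0.044%) in each. Since the 87 were chosen in Tconv, larger values there are partly set by the choice. Ccl5 was at 44.1 to 101 in wild type and 4.51 to 9.59 in CD28-deficient Nrp1- Treg (-3.12, adjusted p = 0.0127) and at 27.5 to 42.9 and 13.7 to 19.1 in Nrp1+ Treg (-1.0, adjusted p = 1). Tox2 lay at -1.77 in Nrp1+ Treg (adjusted p = 0.0109), near its -1.89 in Tconv, and Cd22 at -1.04 and -0.78 in the Treg subsets (adjusted p = 0.00151 and 0.0151).

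The difference of the effects was tested for every gene: the Tconv effect minus the mean of both Treg effects. It was called for 25 genes (0.22% of those tested), all more negative in Tconv and all among the 87, while 0 went the other way in limma (9 at an unadjusted p under 0.05). For 7 of the 25, wild type Treg of both subsets were so low that a fall to FPKM 0 would be smaller on this scale than the Tconv change, so the test cannot compare the effects. Gzmk, Gzma, Il21 and Sostdc1 are among these, and the last was at 0.406 in wild type and 0.00973 in CD28-deficient Nrp1+ Treg. For 6 more, Tbx21, Zbtb32, Gpm6b and Rap1gap2 among them, the same held in Nrp1- Treg, and for 12 in neither subset. Myo1f was at 10 to 13.7 and 8.18 to 11 in Nrp1+ Treg, wild type first, and at 8.34 to 12.8 and 9.41 to 12.7 in Nrp1- Treg, which overlap, and its effects differed by -2.42 ± 0.29 (adjusted p = 0.00128 by limma). S100a4 was at 88.1 to 170 and 56.1 to 132 in Nrp1+ Treg and at 76.1 to 104 and 78.0 to 112 in Nrp1- Treg, also overlapping, and its effects differed by -3.03 ± 0.48. Without wild type replicate 1, 9 differences were called, of which Myo1f and S100a4 are among those 12, and without CD28-deficient replicate 3, 39.

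**Figure D5:**
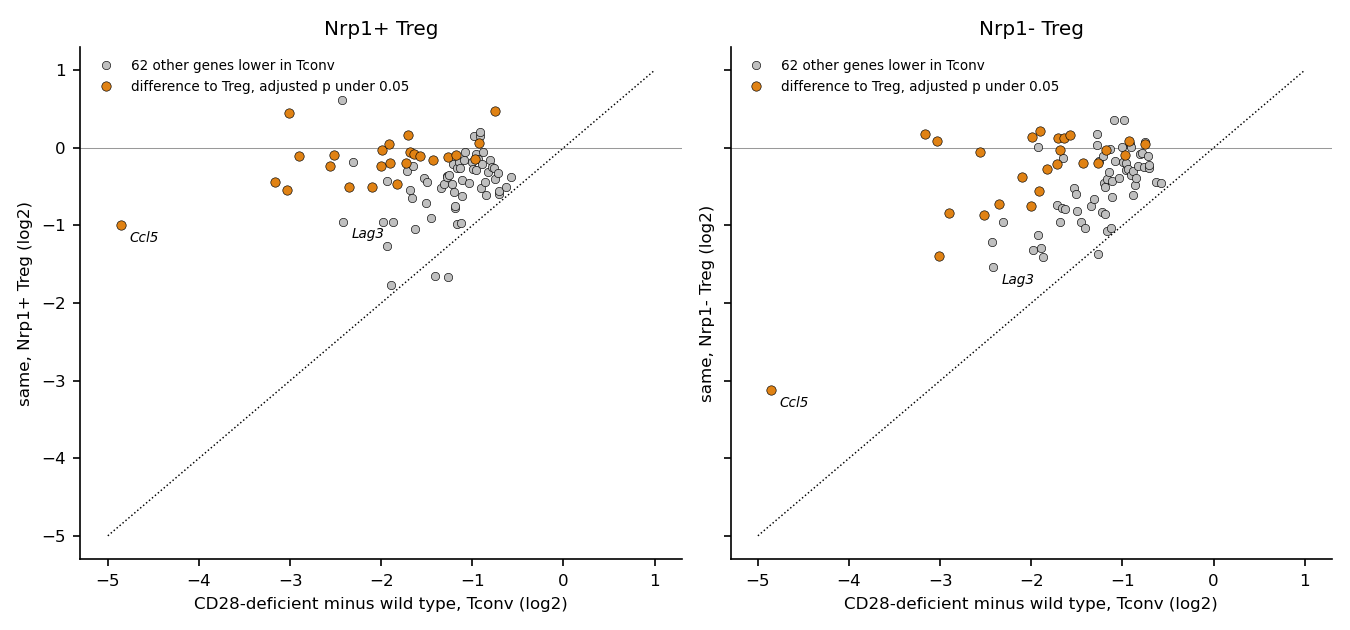
Difference between CD28-deficient and wild type cells (log2 scale) for the 87 genes called in Tconv, with the Tconv value on the horizontal axis and the value in Nrp1+ Treg (left) or Nrp1- Treg (right) on the vertical axis; orange points are the 25 genes whose effects differ between Tconv and the Treg mean, and the dotted line marks equal values. All orange points lie above the dotted line, near 0 in most cases, while Ccl5 lies at -3.12 in Nrp1- Treg.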

How the data were processed

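Total RNA of sorted spleen T cells was made into NEBNext Ultra libraries and read as single reads of 50 nt, per the labels. The deposited values are FPKM, 1 per gene symbol and library, which the authors made with Trimmomatic 1, TopHat2 2.0.11 and Cufflinks on GRCm38, per the submitters' processing notes. The annotation and the strand setting: not given in the sources used here. Counts were not used here: the commonest ratio of low values between a pair of Tconv libraries held 1.69% to 5.28% of low genes, so no step of single reads was recovered and the depth is unknown. The files name no unit, and FPKM was inferred from the tool and the values.

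Genes that reached FPKM 1 in 3 or more Tconv libraries (11370 of 26665) were tested with limma 3.58.1 in R 4.3.3 on log2(FPKM + 1), with a pseudocount of 1, a mean for each of 6 groups, all 18 libraries and a variance trend (12 residual degrees of freedom; the prior ones had a median of 4.73). Tests were two-sided and adjusted by Benjamini-Hochberg over all tested genes. The code was tested on simulated data.

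Libraries with the same replicate number deviated together: the correlations of deviations from the group means were 0.51, 0.24 and 0.22 for replicates 1, 2 and 3. The main fit had no term for the replicate number, so the 87 calls do not use this pairing. Only the fits with the replicate block used it. Why the libraries pair is not given in the labels. The gene lists and members were chosen with earlier results of these data known. Named genes are Cd28 and Foxp3, the 25 largest called changes each way without overlap (leaving out unnamed models, receptor segments and small RNAs), at most 6 called members of each list, and a set of T cell genes whatever their p. A few others, such as genes called only without 1 library and Cebpa, Asb2 and Lgals1, were named after their values were seen. Positions are from GENCODE M21 on GRCm38, and promoters from RefSeq, found for 62 of the 87 called genes. Alternatives were a pseudocount of 0.1, other filters, no trend, the 6 Tconv libraries alone, quantile normalization, a replicate block and leaving out libraries. Results for a few genes are not reported here.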

Additional observations from a re-analysis of the deposited data

Results flagged for a closer look

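The effect of CD28 loss differed between Tconv and the mean of the Treg subsets for 25 genes by a test of that difference in limma. Among granule and Th1 genes the differences (Tconv minus mean Treg effect, log2) were -2.79 for Ccl5, -2.53 for Nkg7, -2.44 for Cxcr3, -2.05 for Gzmk, -1.52 for Gzma and -1.52 for Tbx21. Genes of migrating and antigen-experienced cells differed by -3.03 (S100a4), -2.81 (S100a6), -2.04 (Anxa2) and -1.85 (Itgb1). Of the Tfh list, Angptl2, Sostdc1 and Il21 differed by -1.65, -1.46 and -1.25, and Angptl2 was also expressed in Treg. The remaining named genes were Myo1f at -2.42, Tnfsf14 at -1.91, Casp1 at -1.74, Zbtb32 at -1.66, Gpm6b at -1.66 and Rap1gap2 at -0.998. For Gzmk, Gzma, Sostdc1 and Il21 the wild type Treg mean was at most 0.883, so log2(FPKM + 1) could not show a fall in Treg as large as in Tconv, and the difference does not compare the effects. For Tbx21, Zbtb32, Gpm6b and Rap1gap2 this held in Nrp1- Treg. All 25 were also called in Tconv, and the adjusted p-values of the named ones lay between 0.00128 and 0.0471. Without wild type replicate 1 the differences of S100a4, Myo1f, Gzmk, Sostdc1, Il21, Gpm6b and Rap1gap2 stayed called. Those of the other named genes were lost, such as Nkg7 (adjusted p = 0.224 by limma) and Ccl5 (0.0968). The Treg mean joins unlike effects in Nrp1+ and Nrp1- Treg for Nkg7 (0.45 and -1.4) and Ccl5 (-1.0 and -3.12).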

How the results depend on the processing

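The 87 calls became 10 with only the 6 Tconv libraries in the model, 152 with the replicate block, 147 with the replicate block and only the 6 Tconv libraries, and 172 with no filter on low values and without CD28-deficient replicate 3. The last pair was chosen after seeing the data. Leaving out 1 Tconv library gave 46 to 143 calls, and 6 to 39 for the difference between Tconv and Treg effects, which was 16 with a pseudocount of 0.1. The other settings kept the count within 1.5 times of 87: 91 with a pseudocount of 0.1, 117 with no filter (5 higher), 74 with a filter on the mean, 83 with no trend, 114 after quantile normalization and 108 without both libraries that stand apart. Among the 74 genes named by the rule, the replicate block lost no call and added 3. Only the 6 Tconv libraries lost 39 of these calls, quantile normalization 9, and the cause was not tested. No named gene changed sign with a call. Depth is unknown, so the sampling error of low genes, such as those listed at or near 0, could not be given.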

Other observations

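Among the interferon response genes, Igtp and Gbp2 were chosen after their values were seen. Igtp, an immunity-related GTPase, lay at -0.94 (adjusted p = 0.0659 by limma) and Gbp2, a guanylate-binding protein, at -0.91 (adjusted p = 0.0867), and both were called with the replicate block (adjusted p = 0.0235 and 0.0194). Of the 34 tested interferon response genes, 21 did not overlap between the genotypes, all lower, against 18.7% of all tested genes. Both are from before quantile normalization, after which 638 tested genes did not overlap and were lower, and 312 were higher. Glycolysis genes gave 0 calls among 19 with limma (median -0.35), and cholesterol and fatty acid synthesis genes 0 among 20 (median -0.11).

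Transcript length moved with the differences. Over the 2449 genes with the shortest transcripts the median difference was -0.29, and 37 of them were called, while over the 2449 with the longest it was -0.06, and 10 were called. Without wild type replicate 1 the medians were -0.14 and -0.26, and the calls 21 and 5. A length was found for 86.1% of the tested genes. Its part in the results was not tested.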
